A study of Homo sapiens with 35 samples.

Results

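Ribosome biogenesis factors are the proteins that transcribe, modify, cut and fold ribosomal RNA and assemble it with ribosomal proteins, mostly in the nucleolus, and that leave the particle before it becomes a working ribosome. RNA polymerase I makes the precursor RNA, box C/D and box H/ACA ribonucleoproteins modify it under the guidance of small nucleolar RNAs (snoRNAs), the small subunit processome cleaves it, and other factors carry the large and small subunits to the cytoplasm. The kinase mTOR is known to control both rRNA synthesis and the translation of ribosomal protein mRNAs, and MYC is known to activate many genes of this pathway through the E-box sequence CACGTG. The set described here was a list of 49 gene symbols, in which each symbol was represented by its own probe set of highest mean level. Of these, 44 were measured among 22384 genes. NOP56 (a core protein of box C/D particles) and DKC1 (dyskerin, the pseudouridine synthase) were on the array only through probe sets shared with the snoRNAs in their introns, and DDX18, GNL3 and EBNA1BP2 were not in the annotation table used here, so these 5 have no value.

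RNA came from SUM149, an established human breast cancer cell line, and was hybridised to 35 Affymetrix transcriptome arrays. The cells were treated with PP242, an inhibitor of the mTOR kinase active site, PP242 + IR, RAD001 (everolimus, a rapamycin analog that inhibits mTOR complex 1), RAD001 + IR, IR alone or the solvent DMSO. IR was read as ionizing radiation, which the labels do not spell out, and they give neither doses nor times. From each treatment RNA of polysomes (mRNA loaded with several ribosomes) and total RNA were measured on 3 arrays each, except for total RNA of PP242 + IR with 2 arrays. Replicates are called biological in the titles, but nothing says that they were separate cultures, so the p-values below measure the spread between these samples only. In bulk RNA, fewer cells with a transcript and less of it per cell cannot be told apart. All values are log2 signals, on which 1 unit is a doubling, and levels were compared only within a probe set.

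The arrays fitted an epithelial line: the median of 6 epithelial markers (EPCAM, keratins and others) lay between 13.43 and 14.85 on every array, against 4.08 to 4.91 for 5 fibroblast, 4.38 to 5.21 for 5 leukocyte and 3.95 to 4.43 for 6 endothelial markers. CD68 was the exception among the leukocyte markers, at 13.2 to 15.0. Some arrays stood apart within their groups. On 8 arrays (replicate 3 of each inhibitor group except total RNA of PP242 + IR, and replicate 2 of that group) the median of the 6 MCM helicase genes, which cells use for DNA replication, was 8.46 to 9.21, and on the other 27 arrays it was 9.48 to 11.6. The second replicates of PP242, RAD001 and DMSO total RNA had the highest array medians (4.84, 4.68 and 4.56, where the others lay under 4.5). Values without each set are given where they end a call, with exceptions named below.

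The 44 measured factors were all expressed above the median gene, with mean levels over the 35 arrays from 6.43 (NHP2, a core protein of box H/ACA particles) to 15.29 (NPM1, nucleophosmin, a histone and ribosomal protein chaperone of the nucleolus). Promoter sequences (RefSeq, build GRCh38.p14, 250 bases before to 50 bases after the annotated start) were found for 42 of the 49 symbols, and there was none for NOP58, NOLC1, BOP1, RRP1B, RRS1, DDX18 and RRP12. The E-box CACGTG, which reads the same on both strands, stood in 16 of these 42 promoters (38.1%), in 27.7% of 83 promoters of other ribosome biogenesis genes, in 4.76% of 63 promoters of cytosolic ribosomal proteins, and in 8.34% of 22198 protein-coding promoters. A start of C and at least 4 more pyrimidines (C or T), the signature of mRNAs with a terminal oligopyrimidine tract whose translation mTOR is known to control, stood in 5 of the 42 (11.9%), in 68.3% of the ribosomal protein promoters and in 4.54% of protein-coding promoters. The 30-base windows around the E-box are shown for 6 of the factors described below, with the E-box in capitals, 5′ to 3′ on the strand of the gene.
FBL (chr19:39846356-39846385, minus strand): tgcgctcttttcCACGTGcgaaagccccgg
MRTO4 (chr1:19251807-19251836, plus strand): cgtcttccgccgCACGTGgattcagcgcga
PES1 (chr22:30591880-30591909, minus strand): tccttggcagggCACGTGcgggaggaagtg
NOP10 (chr15:34343130-34343159, minus strand): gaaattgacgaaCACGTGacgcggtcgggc
NOL6 (chr9:33473894-33473923, minus strand): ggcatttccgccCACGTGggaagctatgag
RRP9 (chr3:51941892-51941921, minus strand): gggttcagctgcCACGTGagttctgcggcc

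The pyrimidine starts of the measured factors are shown next, since they are the letters that set these genes beside the ribosomal protein mRNAs. They are the first 12 bases from the annotated start, with the unbroken run of pyrimidines in capitals.
FBL (chromosome 19): CTTTTCCacgtg
NPM1 (chromosome 5): CTTTCCCTggtg
DDX21 (chromosome 10): CTCTTCCTCTCC

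UTP14A also has such a start, as does EBNA1BP2, which was not measured. A match of letters is a description of these windows and not a measured binding or start site. GRWD1, NOC4L, NOC2L, BRIX1 and RRP1, which recur below, had no CACGTG in the window searched. Measured factors with and without the E-box had like medians in the comparisons with DMSO in total RNA: −0.38 with (15 genes) and −0.44 without (23 genes) for PP242, and −0.45 and −0.33 for RAD001.

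Polysome RNA was first compared with total RNA of the same treatment, which asks which of these mRNAs were relatively more or less abundant among the ribosome-loaded RNA. In each of the 6 treatments a different set of arrays gives the comparison. GRWD1 (a histone-binding WD-repeat protein of the nucleolus), MRTO4 (known from yeast to hold the place of the ribosomal stalk on the young large subunit) and NOC4L (the counterpart of a yeast small subunit export factor) passed the test as higher in polysome RNA in all 6 treatments. NOP10, a small core protein of box H/ACA particles, lay lower in polysome RNA in all 6 and passed the test in PP242, RAD001 and DMSO. Calls were made in limma at a Benjamini-Hochberg adjusted p under 0.05 over all genes. The MRTO4 call with DMSO was lost after quantile normalization. Its calls with DMSO and with IR were each lost in 5 of 6 refits without a single array.

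With PP242, 11 factors were called higher and 1 lower, that is 27.3% of the 44, where 8.8% of all genes and 17.6% of the 8016 genes at or above the level of the lowest factor were called. With RAD001 the counts were 13 higher and 1 lower (31.8%), against 11.3% of all genes and 21.7% of genes at that level. With RAD001 + IR 8 were called higher and none lower (18.2%), against 8.13% and 15.4%. With PP242 + IR there were 4 higher and none lower (9.09%), against 4.59% and 9.48%. With IR there were 5 higher and 1 lower (13.6%), against 4.36% and 9.03%, and with DMSO 4 higher and 1 lower (11.4%), against 4.16% and 8.26%. The share of factors called was therefore above that of all genes in each treatment, and nearer to that of genes at or above the lowest factor. Those genes were not matched to the levels of the factors.

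Over the 44 factors the median difference, polysome minus total, was 0.43 with PP242, 0.04 with PP242 + IR, 0.41 with RAD001, 0.20 with RAD001 + IR, 0.25 with IR and 0.15 with DMSO. Over all genes it lay between −0.07 and 0.00, and over genes at or above the lowest factor it was 0.25 with PP242, 0.10 with PP242 + IR, 0.24 with RAD001, 0.13 with RAD001 + IR, 0.17 with IR and 0.21 with DMSO. Quantile normalization raised the median of all genes by 0.10 to 0.17 in these comparisons and gave the factors 0.29, 0.10, 0.34, 0.27, 0.24 and 0.05 in the same order of treatments. After it all genes had 0.09, 0.08, 0.11, 0.10, 0.08 and 0.07, and genes at or above the lowest factor 0.18, 0.19, 0.25, 0.24, 0.19 and 0.14. The factors' median was thus below that of genes at or above the lowest factor for PP242 + IR and DMSO, on either scaling. Without the 3 arrays of high median the PP242 value was 0.12, the RAD001 value 0.24 and the DMSO value 0.07, and without the 8 arrays of low MCM level the PP242 + IR value was 0.13. The 48 measured cytosolic ribosomal protein genes lay the other way, at −0.47 with PP242, −0.36 with RAD001 and −0.14 with DMSO, and 14, 14 and 3 of them were called lower in polysome RNA, where 1 was called higher with RAD001 and none in the other two. Of 93 other ribosome biogenesis genes, 20 were called higher and 1 lower with PP242, 21 and 1 with RAD001, and 7 and none with DMSO.

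**Figure D1:**
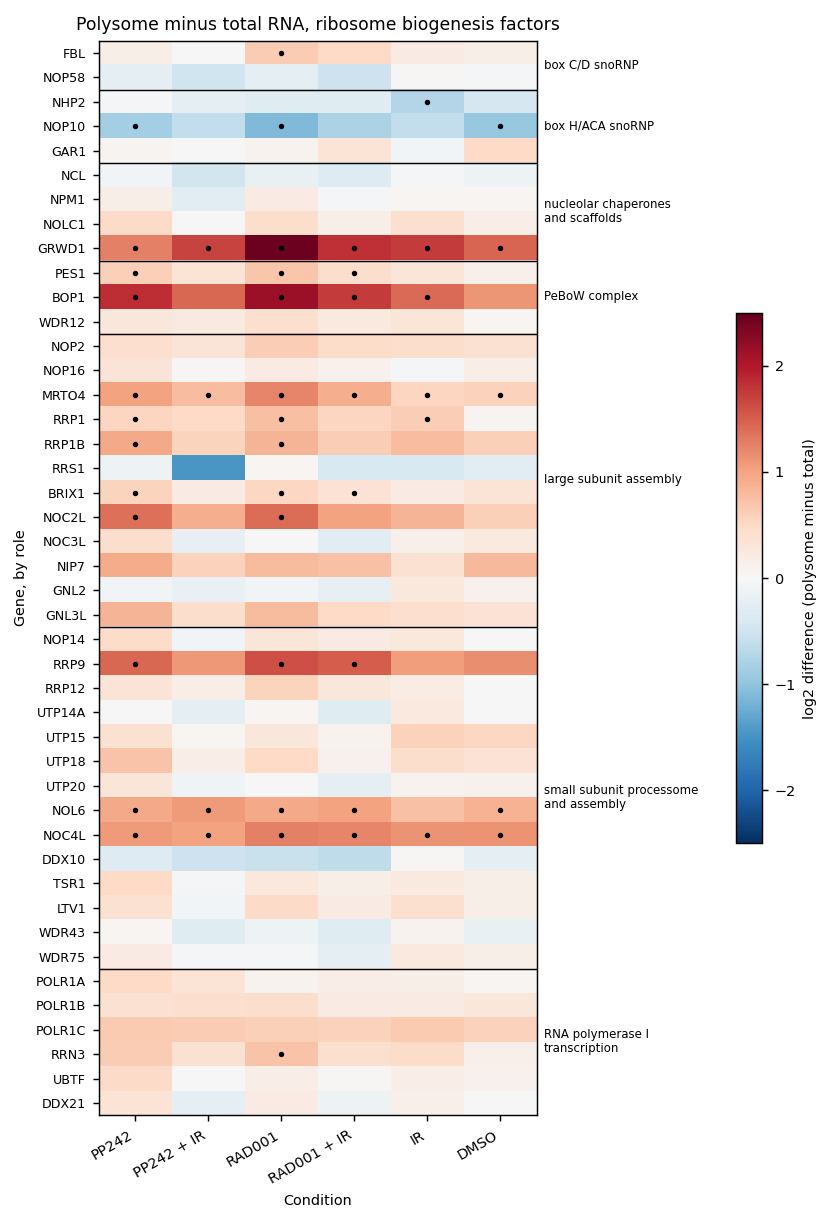
Difference between polysome and total RNA (log2, polysome minus total, colour scale) for the 44 measured ribosome biogenesis factors (down the page, grouped by role) in each of 6 treatments (columns). A dot marks an adjusted p under 0.05; GRWD1, MRTO4 and NOC4L carry a dot in all 6 columns, and NOP10 is below 0 in all 6.

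Across treatments, 25 of the 44 factors lay above 0 in all 6 comparisons (56.8%, against 23.5% of all genes and 47.1% of the 8016 genes at or above the lowest factor), 3 lay below 0 in all 6 (NHP2, NOP10 and NCL) and 16 had either sign. Altogether 15 factors were called at least once, 13 as higher and 2 as lower, and 29 never were. That is 34.1% called at least once, against 16.6% of all genes and 28.6% of genes at that level. For 7 factors (GRWD1, BOP1, MRTO4, BRIX1, RRP9, NOL6 and NOC4L) no array of polysome RNA overlapped the arrays of total RNA in any treatment, which is 15.9% of the 44, against 5.6% of all genes and 11.7% of genes at that level.

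Among nucleolar chaperones and scaffolds GRWD1 had the widest gap. Its polysome levels were 10.44, 10.22 and 10.77 with PP242, 10.82, 11.06 and 10.92 with PP242 + IR and 10.86, 10.97 and 10.96 with RAD001. They were 10.92, 10.56 and 11.12 with RAD001 + IR, 11.35, 11.75 and 11.49 with IR and 11.05, 11.45 and 11.07 with DMSO. In total RNA the levels were 9.62, 8.84 and 9.17 with PP242, 9.77 and 8.74 with PP242 + IR and 8.19, 7.83 and 9.41 with RAD001, and 8.56, 9.33 and 9.26 with RAD001 + IR, 9.95, 9.85 and 9.52 with IR and 10.15, 9.02 and 10.06 with DMSO. Every polysome array was above every total RNA array, and the spread was wider in total RNA. The difference was 2.45 ± 0.33 with RAD001 (SE, adjusted p = 4.218e-05), and it ran from 1.26 with PP242 (adjusted p = 0.0165) to 1.82 with RAD001 + IR in the other 5. Without the 8 arrays of low MCM level the PP242 call was lost (1.10, adjusted p = 0.0525), as was that of PP242 + IR (1.17, 0.291), and the DMSO call without the arrays of high median (1.08, 0.065).

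The abundant scaffolds did not follow it. NCL (nucleolin, which binds the rRNA precursor) had polysome levels of 14.51, 14.54 and 14.34 with PP242, 14.30, 14.50 and 14.31 with PP242 + IR, 14.43, 14.30 and 14.44 with RAD001, 14.38, 14.39 and 14.42 with RAD001 + IR, 14.74, 14.40 and 14.55 with IR, and 14.40, 14.35 and 14.51 with DMSO. Its total RNA levels were 14.57, 14.22 and 14.77 with PP242, 14.77 and 14.88 with PP242 + IR, 14.33, 14.59 and 14.78 with RAD001, 14.48, 14.72 and 14.93 with RAD001 + IR, 14.76, 14.44 and 14.59 with IR, and 14.63, 14.53 and 14.46 with DMSO. All 6 differences were below 0, from −0.46 to −0.03, and none passed the test. NPM1 lay between 15.08 and 15.48 on the 18 polysome arrays and between 14.74 and 15.55 on the 17 total RNA arrays.

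NPM1 differed little between treatments. With PP242 it had 15.23, 15.31 and 15.40 in polysome RNA and 15.34, 14.74 and 15.40 in total RNA, with PP242 + IR 15.11, 15.08 and 15.41 against 15.41 and 15.55, and with RAD001 15.36, 15.26 and 15.46 against 15.29, 14.90 and 15.26. With RAD001 + IR it had 15.21, 15.23 and 15.48 in polysome RNA and 15.32, 15.20 and 15.55 in total RNA, with IR 15.38, 15.29 and 15.38 against 15.21, 15.28 and 15.40, and with DMSO 15.37, 15.15 and 15.48 against 15.24, 15.23 and 15.37. Polysome and total RNA overlapped in every treatment, with differences from −0.28 to 0.21. NOLC1 (a scaffold that binds snoRNA particles) had differences from 0.00 to 0.49, with no call.

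**Figure D2:**
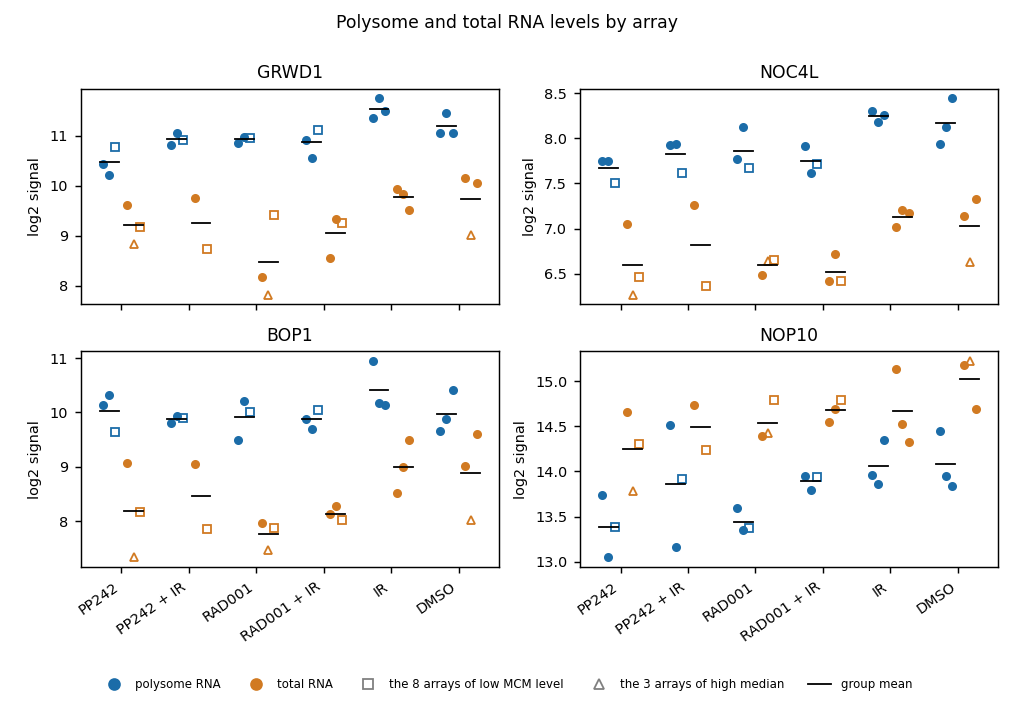
Log2 signal of GRWD1, NOC4L, BOP1 and NOP10 on each array, with polysome RNA (blue) left of total RNA (orange) for each treatment on the horizontal axis. Squares are the 8 arrays of low MCM level, triangles the 3 arrays of high median and bars the group means; GRWD1 and NOC4L have every polysome array above every total RNA array of the treatment, and NOP10 has the lower mean in polysome RNA throughout.

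The PeBoW complex (PES1, BOP1 and WDR12) is needed to process the rRNA of the large subunit. BOP1 levels in polysome RNA were 10.14, 10.31 and 9.65 with PP242, 9.81, 9.94 and 9.90 with PP242 + IR, 9.49, 10.22 and 10.01 with RAD001, 9.87, 9.70 and 10.04 with RAD001 + IR, 10.94, 10.17 and 10.14 with IR, and 9.66, 9.87 and 10.41 with DMSO. In total RNA they were 9.06, 7.33 and 8.16 with PP242, 9.05 and 7.86 with PP242 + IR, 7.96, 7.47 and 7.88 with RAD001, 8.12, 8.27 and 8.01 with RAD001 + IR, 8.52, 8.99 and 9.50 with IR, and 9.02, 8.02 and 9.61 with DMSO. No polysome array overlapped total RNA of its treatment, and the difference was 1.85 ± 0.38 with PP242 (adjusted p = 0.0037), 2.14 ± 0.38 with RAD001 (0.000667), 1.74 ± 0.38 with RAD001 + IR (0.00461) and 1.42 ± 0.38 with IR (0.0316). The values 1.43 with PP242 + IR and 1.10 with DMSO did not pass (0.0517 and 0.103).

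PES1 had 7.54, 7.73 and 7.42 in polysome RNA and 7.21, 6.74 and 6.98 in total RNA with PP242, 7.43, 7.60 and 7.47 against 7.26 and 7.06 with PP242 + IR, and 7.34, 7.62 and 7.64 against 6.74, 6.83 and 6.95 with RAD001. It had 7.35, 7.28 and 7.54 in polysome RNA and 6.88, 6.89 and 7.09 in total RNA with RAD001 + IR, 7.84, 7.46 and 7.49 against 7.21, 7.28 and 7.43 with IR, and 7.38, 7.34 and 7.61 against 7.48, 7.03 and 7.46 with DMSO. The arrays overlapped with DMSO only. PES1 was called higher with PP242 (0.59 ± 0.14, adjusted p = 0.00763), RAD001 (0.70 ± 0.14, 0.00152) and RAD001 + IR (0.44 ± 0.14, 0.0453), and had 0.12 with DMSO. WDR12 had 0.04 to 0.39 and no call.

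Among the 12 measured large subunit factors the calls were spread over 5 of them. MRTO4 differed by 1.00 ± 0.15 with PP242 (adjusted p = 0.000295), 0.77 ± 0.17 with PP242 + IR (0.00905), 1.21 ± 0.15 with RAD001 (2.303e-05), 0.91 ± 0.15 with RAD001 + IR (0.000455), 0.53 ± 0.15 with IR (0.0421) and 0.57 ± 0.15 with DMSO (0.03). The gap was narrowest in the 2 treatments without an inhibitor. BRIX1, whose yeast counterpart acts in early large subunit assembly, was called with PP242 (0.56), RAD001 (0.52) and RAD001 + IR (0.35). NOC2L (an inhibitor of histone acetyltransferases whose yeast counterpart moves young large subunits through the nucleus) was called with PP242 (1.37 ± 0.34) and RAD001 (1.40 ± 0.34).

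RRP1B was called in the same 2 treatments (0.95 and 0.85), and RRP1, its paralog in large subunit processing, with PP242 (0.55), RAD001 (0.75) and IR (0.61). The RRP1 call with PP242 was lost after quantile normalization and with array weights. Its call with IR was lost in 5 of 6 refits without a single array. For RRP1 the value with RAD001 + IR was 0.53 (adjusted p = 0.052), called with the replicate number as a block (0.0476). The other 7 had no call: NOP2 (an rRNA cytosine methyltransferase) ranged from 0.32 to 0.62, GNL3L (a nucleolar GTPase) from 0.36 to 0.84 and NIP7 (an rRNA processing factor) from 0.37 to 0.93, all above 0 in every treatment. With the replicate number as a block, NIP7 was called with PP242 (0.93, adjusted p = 0.0143, 0.151 without the block) and RAD001 (0.79, 0.0298, 0.233 without it), and so was GNL3L (0.84, 0.0268, 0.0938 without it; 0.80, 0.0299, 0.106 without it). NOP16 ranged from −0.05 to 0.33, NOC3L from −0.28 to 0.44, GNL2, also a GTPase, from −0.21 to 0.26 and RRS1 from −1.45 to 0.05. The lowest RRS1 value belonged to PP242 + IR, where total RNA had 11.12 and 12.16 and polysome RNA 9.85, 10.14 and 10.56.

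Of the 14 small subunit factors, 3 were called. NOC4L had polysome levels of 7.75, 7.75 and 7.50 with PP242, 7.92, 7.93 and 7.62 with PP242 + IR, 7.77, 8.12 and 7.67 with RAD001, 7.91, 7.62 and 7.71 with RAD001 + IR, 8.30, 8.18 and 8.26 with IR and 7.93, 8.12 and 8.44 with DMSO. Its total RNA levels were 7.05, 6.27 and 6.46 with PP242, 7.26 and 6.36 with PP242 + IR, 6.49, 6.64 and 6.65 with RAD001, 6.42, 6.72 and 6.42 with RAD001 + IR, 7.02, 7.20 and 7.17 with IR and 7.14, 6.64 and 7.33 with DMSO. The gap was about the same size everywhere, from 1.01 ± 0.23 with PP242 + IR (adjusted p = 0.0106) to 1.26 ± 0.20 with RAD001 (0.000277), and 1.13 ± 0.20 with DMSO (0.00248).

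NOL6, the counterpart of the yeast processome protein Utp22, was called in 5 treatments, with 0.94 for PP242, 1.06 for PP242 + IR, 0.96 for RAD001, 1.00 for RAD001 + IR and 0.87 for DMSO, and had 0.73 with IR (adjusted p = 0.0739). RRP9, a protein of the snoRNA particle that guides the first cuts of the precursor, was called with PP242 (1.44 ± 0.37), RAD001 (1.60 ± 0.37) and RAD001 + IR (1.52 ± 0.37), and had 1.17 with DMSO (0.076). The other 11 had no call, and DDX10, an RNA helicase, lay lowest among them, from −0.63 with RAD001 + IR to 0.04 with IR. UTP18 ranged from 0.10 to 0.72, UTP15 from 0.05 to 0.58, RRP12 (an export factor) from 0.02 to 0.55, LTV1 (a late small subunit factor) from −0.07 to 0.47 and TSR1 from −0.03 to 0.50. NOP14, UTP20, UTP14A, WDR43 and WDR75 stayed between −0.31 and 0.46.

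In RNA polymerase I transcription, RRN3, the factor that makes the polymerase competent to initiate, was called with RAD001 (0.72 ± 0.23, adjusted p = 0.0382), and the other 5 had no call. POLR1C, a subunit shared with RNA polymerase III, lay between 0.57 and 0.66 in all 6 treatments, and was called with the replicate block with PP242 (0.66, adjusted p = 0.0322, 0.167 without the block) and RAD001 (0.60, 0.0467, 0.22 without it), and POLR1A, the largest subunit, between 0.05 and 0.50. POLR1B, the second largest subunit, had differences of 0.21 to 0.44, UBTF, which binds the rDNA promoter, had 0.01 to 0.47, and DDX21, a helicase of the nucleolus, had −0.23 to 0.35.

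The modification particles gave the calls in the other direction. NOP10 had polysome levels of 13.74, 13.05 and 13.38 with PP242, 14.51, 13.16 and 13.92 with PP242 + IR, 13.59, 13.35 and 13.38 with RAD001, 13.95, 13.79 and 13.94 with RAD001 + IR, 13.96, 13.86 and 14.34 with IR, and 14.45, 13.95 and 13.84 with DMSO. Its total RNA levels were 14.65, 13.79 and 14.30 with PP242, 14.74 and 14.24 with PP242 + IR, 14.39, 14.43 and 14.79 with RAD001, 14.55, 14.69 and 14.79 with RAD001 + IR, 15.13, 14.53 and 14.33 with IR, and 15.17, 15.22 and 14.69 with DMSO. Arrays did not overlap in 4 treatments, and they did with PP242 + IR and IR. The difference was −0.86 ± 0.27 with PP242 (adjusted p = 0.0463), −1.09 ± 0.27 with RAD001 (0.0086) and −0.95 ± 0.27 with DMSO (0.0437), and all 3 calls were lost without the 8 arrays of low MCM level (−0.82, −0.94 and −0.95, adjusted p = 0.166, 0.126 and 0.0751). None of the 8 is a DMSO array, so the DMSO difference stayed the same and only the spread was estimated from fewer arrays. The DMSO call was also lost without the 3 arrays of high median (−0.85, 0.154). With RAD001 + IR it had −0.78 (0.0742), which was called with the replicate block (0.0237). Its partner NHP2 was called lower with IR (−0.73 ± 0.20, 0.0319), and GAR1, the third measured protein of that particle, had values from −0.07 to 0.51.

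In the box C/D particle, FBL (fibrillarin, the methyltransferase) was called higher with RAD001 (0.63 ± 0.18, adjusted p = 0.025) and had 0.01 to 0.51 in the other treatments, and NOP58 had −0.52 to 0.02. At the threshold named in the series' design text, an unadjusted p under 0.05 with a log2 change over 1.5, the factors past it in these comparisons were BOP1 with PP242 (0.849% of all genes passed), GRWD1 with PP242 + IR (1.05%), GRWD1, BOP1 and RRP9 with RAD001 (1.42%) and with RAD001 + IR (1.41%), GRWD1 with IR (0.764%) and none with DMSO (0.746%).

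The calls differed in how far they rested on single arrays. With PP242 those of BOP1, NOC4L, MRTO4 and BRIX1 held whichever array was left out, with RAD001 those of GRWD1, BOP1, RRP9, NOC4L, MRTO4, NOP10, RRP1 and PES1, with RAD001 + IR those of GRWD1, BOP1, NOC4L and MRTO4, with IR those of GRWD1 and NOC4L, and with DMSO that of NOC4L. With PP242, leaving out total replicate 2 moved RRP9 to 0.99, NOC2L to 1.00, RRP1B to 0.63 and NOL6 to 0.72 and ended these calls. The same array also ended those of GRWD1, PES1 and RRP1. Each of these calls was also lost without at least 1 polysome array. Of 6 refits, RRP9, NOC2L, RRP1B and NOL6 were lost in 3, GRWD1 and PES1 in 2, and RRP1 in 4. NOP10 was lost in 4, without polysome replicate 2 or 3 or total replicate 1 or 3. With PP242 + IR, all 4 calls ended without total replicate 2, which leaves 1 total RNA array, where GRWD1 had 1.17 (limma adjusted p = 0.34). With RAD001, NOC2L was lost without polysome replicate 2 only, and NOL6 without polysome or total replicate 2. RRN3 was lost without polysome replicate 2 or 3 or total replicate 2 (0.43 without the last). RRP1B was lost in 4 of 6 refits. With RAD001 + IR, BRIX1 was lost without any 1 array (0.32 to 0.38) and PES1 without 5 of the 6, and polysome replicate 3 or total replicate 1 decided RRP9 and polysome replicate 1 NOL6. With IR, polysome replicate 1 or 2 and total replicate 2 each decided BOP1, NHP2, RRP1 and MRTO4, and with DMSO polysome replicate 2 and total replicate 2 each decided GRWD1, NOP10, NOL6 and MRTO4, with GRWD1 at 1.08 and NOL6 at 0.57 at the lowest. No such refit turned a sign.

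Some calls were lost without the sets of arrays named at the start, in refits that also had fewer arrays to estimate the spread. Without the 8 arrays of low MCM level, all 4 calls with PP242 + IR were lost, where 1 total RNA array was left: NOL6 had 0.67 (limma adjusted p = 0.616), NOC4L 0.66 (0.461) and MRTO4 0.72 (0.241), beside GRWD1 above. With RAD001 + IR the lost calls were BOP1 (1.59, 0.0824), RRP9 (1.56, 0.052), NOL6 (0.99, 0.0614), PES1 (0.43, 0.206) and BRIX1 (0.37, 0.119). With all arrays their values were close to these, at 1.74, 1.52, 1.00, 0.44 and 0.35. Those of RRN3 with RAD001 (0.74, 0.135), RRP1 with PP242 (0.58, 0.0897) and NHP2 with IR (−0.73, 0.0568) were lost too, with fewer arrays left to estimate the spread. The groups of IR alone hold none of the 8, and the NHP2 value was the same with them. The FBL call with RAD001 was also lost, since neither box C/D factor was called without these arrays. Without the 3 arrays of high median the lost calls with PP242 were RRP9 (0.99, 0.0807), NOC2L (1.00, 0.0751), RRP1B (0.63, 0.107) and RRP1 (0.45, 0.189). With RAD001 it was RRN3 (0.43, 0.135), where BRIX1 and FBL were not followed. With DMSO they were NOL6 (0.57, 0.168) and MRTO4 (0.41, 0.179), beside GRWD1 and NOP10 above.

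The treatments were next compared with DMSO in total RNA, which asks how transcript levels of these factors moved with each inhibitor. In PP242 cells 2 factors fell: MRTO4 and BRIX1, both of the large subunit. They were 2 of 44, where 0.125% of all genes were called, and 15 of the 44 (34.1%) had an unadjusted p under 0.05, against 9.42% of all genes and 16.2% of genes at or above the lowest factor. The percentages of all genes called were 0.0268% with PP242 + IR, 0% with RAD001, 0.00893% with RAD001 + IR and 0% with IR, and limma called no factor in these 4 comparisons, with 2, 13, 7 and 0 factors at an unadjusted p under 0.05. Those are 4.55%, 29.5%, 15.9% and 0% of the factors, against 5.25%, 7.63%, 6.23% and 0.764% of all genes and 7.75%, 11.5%, 7.9% and 0.0749% of genes at or above the lowest factor.

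MRTO4 total RNA levels were 11.29, 10.76 and 10.81 with PP242, 11.40 and 11.16 with PP242 + IR, 11.02, 10.85 and 10.92 with RAD001, 11.18, 11.06 and 11.53 with RAD001 + IR, 11.63, 11.92 and 12.06 with IR, and 11.89, 11.50 and 12.10 with DMSO. All PP242, PP242 + IR and RAD001 arrays were below all DMSO arrays, 1 RAD001 + IR array reached into the DMSO range, and IR lay within it. The mean was 10.95 ± 0.29 with PP242 against 11.83 ± 0.31 with DMSO (SD, n = 3 each), a difference of −0.88 ± 0.15 (SE, limma adjusted p = 0.0109). The RAD001 difference was as large, −0.90 ± 0.15, with an unadjusted p of 2.884e-06 and an adjusted p of 0.0646, and those of PP242 + IR and RAD001 + IR were −0.55 ± 0.17 (adjusted p = 0.598) and −0.57 ± 0.15 (0.537). Without the 8 arrays of low MCM level the PP242 value was −0.80 and its adjusted p 0.0937; without DMSO total replicate 1 or 3 or PP242 total replicate 2 or 3 the call was also lost, at adjusted p 0.0545, 0.184, 0.0622 and 0.0772.

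BRIX1 total RNA levels were 10.66, 10.40 and 10.70 with PP242, 10.83 and 10.99 with PP242 + IR, 10.77, 10.48 and 10.98 with RAD001, 10.91, 10.87 and 10.92 with RAD001 + IR, 11.22, 11.28 and 11.34 with IR, and 11.11, 11.10 and 11.17 with DMSO. Every inhibitor array was below every DMSO array, and every IR array was above. The PP242 difference was −0.54 ± 0.11 (SE, adjusted p = 0.0301), and the others were −0.22 with PP242 + IR, −0.38 with RAD001 and −0.23 with RAD001 + IR, none past the test. Its call was lost without the 8 arrays (−0.60, adjusted p = 0.065), without the 3 arrays of high median (−0.46, 0.079), after quantile normalization (−0.36, 0.159), and without DMSO total replicate 1 or 3 or PP242 total replicate 2 or 3 (0.0904, 0.247, 0.123 and 0.0576).

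**Figure D3:**
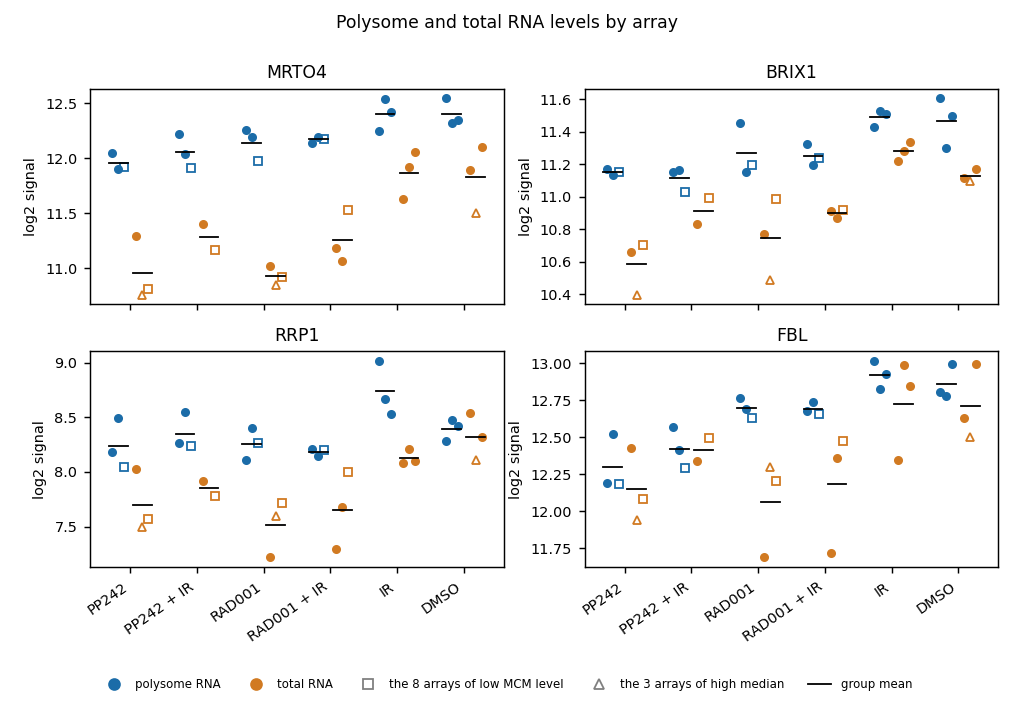
Log2 signal of MRTO4, BRIX1, RRP1 and FBL on each array, with polysome RNA (blue) left of total RNA (orange) for each treatment on the horizontal axis; squares are the 8 arrays of low MCM level, triangles the 3 arrays of high median and bars the group means. MRTO4 total RNA has means of 10.95 with PP242 and 10.93 with RAD001, against 11.83 with DMSO.

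Below the threshold the factors leaned the same way in total RNA. With PP242, 41 of 44 lay below 0 with a median of −0.38, and with RAD001 37 of 44 with a median of −0.38, where 46.8% and 54.2% of all genes lay below 0. Genes at or above the level of the lowest factor had medians of −0.16 with PP242 and −0.10 with RAD001, and 68.7% and 61.9% of them lay below 0. The factors' medians were −0.53 and −0.50 without the 8 arrays, −0.33 and −0.34 without the 3 arrays of high median (31 and 32 of 44 below 0), and −0.32 and −0.36 after quantile normalization. PP242 + IR and RAD001 + IR had medians of −0.13 and −0.15 (29 and 31 of 44 below 0), which were −0.02 and −0.26 without the 8 arrays and −0.23 and −0.25 without the 3, and IR had 0.03, which was −0.01 after quantile normalization and −0.09 without the 3 arrays.

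The large subunit factors had the lowest median with PP242 among the roles of more than 3 genes, −0.62 over 12 genes with all 12 below 0. The 14 small subunit factors had −0.24 with 12 below 0, the 6 of RNA polymerase I −0.28 with all 6 below 0, and the 4 chaperones and scaffolds −0.20. With RAD001 the same roles had −0.47, −0.24, −0.36 and −0.22. Among RAD001 factors of lowest p, RRP1 had 7.22, 7.60 and 7.71 against 8.54, 8.11 and 8.32 with DMSO (−0.81 ± 0.17, adjusted p = 0.204), and GRWD1 had −1.26 ± 0.33 (0.318), with a RAD001 range of 7.83 to 9.41 that overlapped DMSO at 9.02 to 10.15. With PP242 + IR the lowest p after MRTO4 belonged to RRP1 (−0.47, 0.818) and NCL (0.29, 0.93), with RAD001 + IR to RRP1 (−0.67, 0.514), MRTO4 and FBL (−0.53, 0.661), and with IR to BRIX1 (0.15), NOP10 (−0.36) and RRP1 (−0.19), each at an adjusted p of 1.

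The leaders of the other roles had no call. FBL total RNA levels were 12.43, 11.94 and 12.08 with PP242, 12.34 and 12.50 with PP242 + IR, 11.69, 12.30 and 12.20 with RAD001, 11.72, 12.36 and 12.48 with RAD001 + IR, 12.35, 12.99 and 12.85 with IR, and 12.63, 12.51 and 12.99 with DMSO. Its differences were −0.56 with PP242, −0.29 with PP242 + IR, −0.65 with RAD001, −0.53 with RAD001 + IR and 0.02 with IR, none past the test. PES1 had −0.35 with PP242 and −0.48 with RAD001, and its 3 RAD001 arrays (6.74 to 6.95) were below its DMSO arrays (7.03 to 7.48). NCL and NPM1 lay within 0.13 of DMSO with either inhibitor alone.

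POLR1B total RNA levels were 8.42, 8.01 and 8.26 with PP242, 8.46 and 8.24 with PP242 + IR, 8.60, 7.67 and 8.15 with RAD001, 8.60, 8.21 and 8.23 with RAD001 + IR, 8.57, 9.00 and 8.55 with IR, and 8.60, 8.22 and 8.76 with DMSO. UBTF total RNA levels were 9.09, 8.35 and 9.00 with PP242, 9.13 and 9.10 with PP242 + IR, 9.04, 9.00 and 8.75 with RAD001, 9.01, 9.12 and 8.85 with RAD001 + IR, 9.19, 9.22 and 9.30 with IR, and 9.16, 9.20 and 9.42 with DMSO. POLR1B overlapped DMSO in every treatment. UBTF lay below all DMSO arrays in all 4 inhibitor groups, by −0.45 with PP242, −0.14 with PP242 + IR, −0.33 with RAD001 and −0.27 with RAD001 + IR, and none of these passed the test.

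In polysome RNA no factor was called against DMSO with any treatment in limma. The percentages of all genes called were 0.268% with PP242, 0.0938% with PP242 + IR, and 0% with RAD001, RAD001 + IR and IR, and 8, 3, 1, 2 and 0 factors had an unadjusted p under 0.05. Those are 18.2%, 6.82%, 2.27%, 4.55% and 0% of the factors, against 8.44%, 5.7%, 2.18%, 2.36% and 0.809% of all genes and 15.2%, 9.98%, 3.27%, 2.41% and 0.399% of genes at or above the lowest factor. The medians over the 44 factors were −0.17 with PP242, −0.13 with PP242 + IR, −0.17 with RAD001, −0.16 with RAD001 + IR and 0.13 with IR, with 30, 33, 32, 38 and 8 of 44 below 0. After quantile normalization they were −0.06, −0.03, −0.11, −0.08 and 0.17. Genes at or above the level of the lowest factor had −0.13, −0.09, −0.08, −0.08 and −0.03 as deposited. Of these genes 65.6%, 62.8%, 62.9%, 64.8% and 56% lay below 0 in the same order.

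The ribosomal protein genes were further down than the factors in PP242 polysome RNA. Their median was −0.53 with 47 of 48 below 0 and 3 called lower, and it was −0.38 with PP242 + IR, −0.28 with RAD001, −0.11 with RAD001 + IR and −0.13 with IR, with no call in these 4. The other ribosome biogenesis genes lay near the factors, at −0.20 with PP242 (68 of 93 below 0) and −0.16 with RAD001 (81 of 93), with none called. MYC, which is known to activate many of these genes, was at 14.12 ± 0.43 with PP242, 13.46 ± 0.59 with RAD001 and 13.30 ± 0.07 with DMSO in polysome RNA (SD, n = 3 each), and was not called in any comparison with DMSO. Its polysome differences from DMSO were 0.82 with PP242 and 0.16 with RAD001. Without the 8 arrays of low MCM level these were 0.58 and −0.17.

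FBL had the lowest p of the factors in PP242 polysome RNA. Its polysome levels were 12.19, 12.53 and 12.18 with PP242, 12.57, 12.41 and 12.29 with PP242 + IR, 12.76, 12.69 and 12.63 with RAD001, 12.68, 12.74 and 12.66 with RAD001 + IR, 13.01, 12.83 and 12.93 with IR, and 12.81, 12.78 and 13.00 with DMSO. All 4 inhibitor groups lay wholly below DMSO, by −0.56 ± 0.18 with PP242 (adjusted p = 0.275), −0.44 ± 0.18 with PP242 + IR (0.745), −0.16 ± 0.18 with RAD001 (1.0) and −0.17 ± 0.18 with RAD001 + IR (0.9998).

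BRIX1 polysome levels were 11.17, 11.13 and 11.15 with PP242, 11.15, 11.17 and 11.03 with PP242 + IR, 11.46, 11.15 and 11.20 with RAD001, 11.32, 11.19 and 11.24 with RAD001 + IR, 11.43, 11.53 and 11.51 with IR, and 11.61, 11.30 and 11.50 with DMSO. MRTO4 polysome levels were 12.05, 11.90 and 11.92 with PP242, 12.22, 12.04 and 11.91 with PP242 + IR, 12.26, 12.19 and 11.98 with RAD001, 12.14, 12.19 and 12.17 with RAD001 + IR, 12.25, 12.54 and 12.41 with IR, and 12.54, 12.32 and 12.34 with DMSO. Both lay wholly below DMSO in the PP242 groups, BRIX1 by −0.32 ± 0.11 (adjusted p = 0.291) and MRTO4 by −0.45 ± 0.15 (0.302) with PP242 alone, and BRIX1 by −0.35 and MRTO4 by −0.35 with PP242 + IR (0.345 and 0.774). MRTO4 also lay wholly below DMSO with RAD001 (−0.26) and RAD001 + IR (−0.23), where BRIX1 overlapped it. With RAD001 the factors of lowest p were NOP10 (−0.64), BRIX1 (−0.20) and NOP16 (−0.53), each at an adjusted p of 1. With RAD001 + IR they were UBTF (−0.35), NOC4L (−0.42) and BRIX1 (−0.21) at 1.00, and with IR RRP1 (0.35), RRN3 (0.35) and RRP1B (0.28) at 1.

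POLR1B polysome levels were 8.51, 8.66 and 8.67 with PP242, 8.65, 8.97 and 8.70 with PP242 + IR, 8.51, 8.68 and 8.56 with RAD001, 8.59, 8.51 and 8.59 with RAD001 + IR, 8.97, 8.85 and 8.94 with IR, and 8.74, 8.86 and 8.83 with DMSO. UBTF polysome levels were 9.39, 9.50 and 8.95 with PP242, 9.08, 9.30 and 9.02 with PP242 + IR, 9.09, 9.28 and 8.89 with RAD001, 9.16, 9.08 and 8.81 with RAD001 + IR, 9.52, 9.28 and 9.43 with IR, and 9.21, 9.36 and 9.54 with DMSO. POLR1B lay below all DMSO arrays with PP242, RAD001 and RAD001 + IR, and UBTF with RAD001 + IR only.

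**Figure D4:**
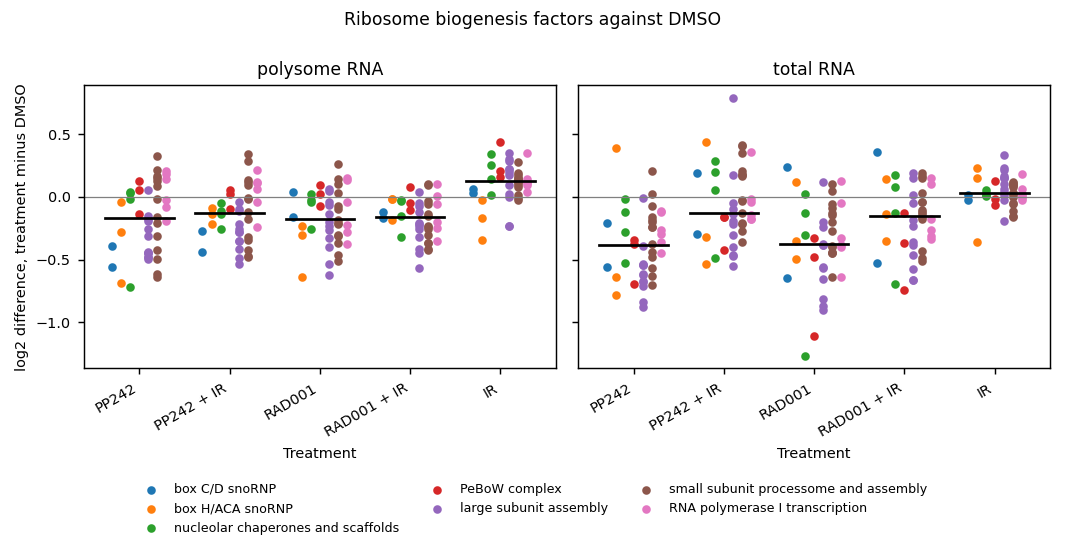
Log2 difference from DMSO in polysome RNA (left) and total RNA (right) for each treatment on the horizontal axis; each point is 1 of the 44 factors, coloured by role, and bars are medians. The bars lie at −0.17 for PP242 and RAD001 in polysome RNA and at −0.38 for both in total RNA, and the IR bars lie at 0.13 and 0.03.

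Translational efficiency, taken as the polysome change of a transcript less its total RNA change, was tested as an interaction. Limma called no gene (0% of all genes) against DMSO with any of the 5 treatments, and 1, 0, 4, 0 and 1 factors had an unadjusted p under 0.05 with PP242, PP242 + IR, RAD001, RAD001 + IR and IR, against 1.52%, 2.21%, 1.9%, 3.06% and 0.88% of all genes. The medians were 0.21, −0.12, 0.15, 0.01 and 0.08 in that order, and after quantile normalization 0.18, 0.05, 0.23, 0.19 and 0.18. Without the 3 arrays of high median they were 0.06, 0.01, 0.11, 0.10 and 0.15, and without the 8 arrays of low MCM level 0.31, −0.07, 0.24, 0.07 and 0.08. Genes at or above the level of the lowest factor had 0.03, −0.11, 0.03, −0.07 and −0.06, and 0.04, 0.05, 0.11, 0.11 and 0.03 after quantile normalization.

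The same 3 factors led with both inhibitors alone. PES1 had 0.47 ± 0.19 with PP242 and 0.58 ± 0.19 with RAD001, MRTO4 had 0.43 ± 0.21 and 0.64 ± 0.21, and RRP1 had 0.47 ± 0.24 and 0.68 ± 0.24, each at an adjusted p of 1. These 2 comparisons share the DMSO arrays. With RAD001 + IR the 3 had 0.32, 0.34 and 0.46 at 1.00. With PP242 + IR the factors of lowest p were NCL (−0.34), RRP1 (0.43) and NPM1 (−0.33), and with IR RRP1 (0.54 ± 0.24), GAR1 (−0.57) and NHP2 (−0.32), each at an adjusted p of 1. The ribosomal protein genes had medians of −0.24 with PP242 and −0.16 with RAD001, on the other side of 0 from the factors.

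With irradiated cells as the reference, PP242 + IR and RAD001 + IR were each compared with IR. These comparisons share no array with those of PP242 and RAD001 against DMSO. Limma called no factor in polysome RNA (0.13% of all genes with PP242 + IR, 0% with RAD001 + IR), total RNA (0.0268% and 0.00447%) or translational efficiency (0% and 0.00447%), and unadjusted p was under 0.05 for 9 and 8, 4 and 12, and 1 and 0 factors. Over all genes the shares were 5.71% and 2.94%, 5.53% and 6%, and 1.66% and 2.29%, and over genes at or above the lowest factor 10.9% and 4.82%, 9.13% and 8.75%, and 1.63% and 2.42%. The polysome medians were −0.19 with PP242 + IR (38 of 44 below 0) and −0.27 with RAD001 + IR (41 of 44), and the total RNA medians were −0.15 (29 of 44) and −0.22 (32 of 44), where the PP242 + IR one was −0.05 without the 8 arrays. The efficiency medians were −0.11 with PP242 + IR and −0.07 with RAD001 + IR. After quantile normalization they were −0.03 and 0.03, and without the 8 arrays −0.19 and −0.05.

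BRIX1 had −0.37 ± 0.11 (adjusted p = 0.243), RRP1B −0.77 ± 0.24 (0.346) and FBL −0.50 ± 0.18 (0.534) in PP242 + IR polysome RNA against IR, and the arrays of the 2 groups did not overlap for any of these. In RAD001 + IR polysome RNA the lowest p belonged to RRP1 (−0.55 ± 0.17), RRP1B (−0.73 ± 0.24) and UBTF (−0.39 ± 0.16), each at 0.9985. In total RNA MRTO4 and BRIX1 led with both, at −0.59 ± 0.17 and −0.37 ± 0.12 with PP242 + IR (0.496 and 0.601) and −0.61 ± 0.15 and −0.38 ± 0.11 with RAD001 + IR (0.64 and 0.688), followed by NHP2 (−0.47) and NOC4L (−0.61). In efficiency the lowest p belonged to NCL (−0.42), NHP2 (0.50) and GNL2 (−0.44) with PP242 + IR and to GNL2 (−0.47), DDX10 (−0.67) and MRTO4 (0.38) with RAD001 + IR, all at 1.00.

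Set side by side, 29 of the 44 factors lay below 0 in total RNA for PP242 both against DMSO and, with IR, against IR, and 31 did for RAD001. In polysome RNA the counts were 28 for PP242 and 29 for RAD001. Of genes at or above the lowest factor, 68.7% lay below 0 in total RNA for PP242 against DMSO and 53.6% for PP242 + IR against IR. For RAD001 these shares were 61.9% and 56.7%. In polysome RNA they were 65.6% and 56.7% for PP242 and 62.9% and 55.8% for RAD001. The share of such genes below 0 in both settings was not computed. The factors above 0 in both settings were GAR1, RRP12 and DDX10 for PP242 total RNA and RRP12, DDX10, WDR43 and DDX21 for PP242 polysome RNA. For RAD001 they were NOP58, NCL, GNL2, UTP15, DDX10 and POLR1C in total RNA and none in polysome RNA.

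The 2 inhibitors were compared directly, without IR, in cells whose doses the labels do not give. Limma called no factor in polysome RNA (0.0268% of all genes), total RNA (0.00447%) or efficiency (0%), and 1 factor (2.27%) had an unadjusted p under 0.05 in each, against 3.05%, 4.72% and 1.34% of all genes. The medians, PP242 minus RAD001, were 0.01, −0.04 and 0.03, where total RNA was 0.08 and efficiency −0.07 after quantile normalization, and 0.13 and −0.11 without the 3 arrays of high median. In polysome RNA FBL had −0.40 (95% interval −0.78 to −0.02), UTP15 −0.43 and NOP58 −0.43, and their PP242 arrays lay below their RAD001 arrays. In total RNA GRWD1 had 0.74 (0.06 to 1.41), UTP15 −0.52 and NOP58 −0.45, and in efficiency GRWD1 had −1.19 (−2.14 to −0.24), FBL −0.48 and UBTF 0.31, with adjusted p of 0.999 to 1 throughout. These intervals are wide, so differences of such sizes between the inhibitors are not resolved by 3 arrays a group.

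The 8 arrays of low MCM level were also set against the other arrays of their own groups, factor by factor, as a description of arrays and not of a treatment. On these 8 arrays 15 of the 44 factors lay above the other arrays of the group every time (34.1%), and 2 lay below every time (4.55%). Of all genes 11.4% lay above and 11.2% below on all 8, and of genes at or above the lowest factor 21.9% and 20.9%. RRS1 (known from yeast to bring the 5S particle to the large subunit) had a median difference of 1.12, NIP7 0.98, LTV1 0.87, RRP12 0.81, POLR1C 0.70 and GAR1 0.68. POLR1A lay lowest at −0.73, followed by NOC3L at −0.55, and NOC2L was the other factor below on all 8, at −0.31. MYC was at 0.99 and above on all 8, and MCM5 at −2.66 and below on all 8, as the choice of these arrays by MCM level entails.

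NIP7 shows the pattern array by array. In polysome RNA it had 14.52 on the array of low MCM level against 13.61 and 13.36 with PP242, 14.49 against 13.96 and 13.51 with PP242 + IR, 14.68 against 13.80 and 13.62 with RAD001, and 14.85 against 13.92 and 13.81 with RAD001 + IR. In total RNA it had 13.45 against 12.96 and 12.31, 13.88 against 12.93, 14.04 against 13.12 and 12.58, and 14.23 against 13.12 and 13.03 in the same order. All 8 were above the rest of their group, whichever inhibitor was used, while MRTO4 and BRIX1 had medians of −0.13 and 0.01. The part of these arrays in the comparisons above is given by the values without them.

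**Figure D5:**
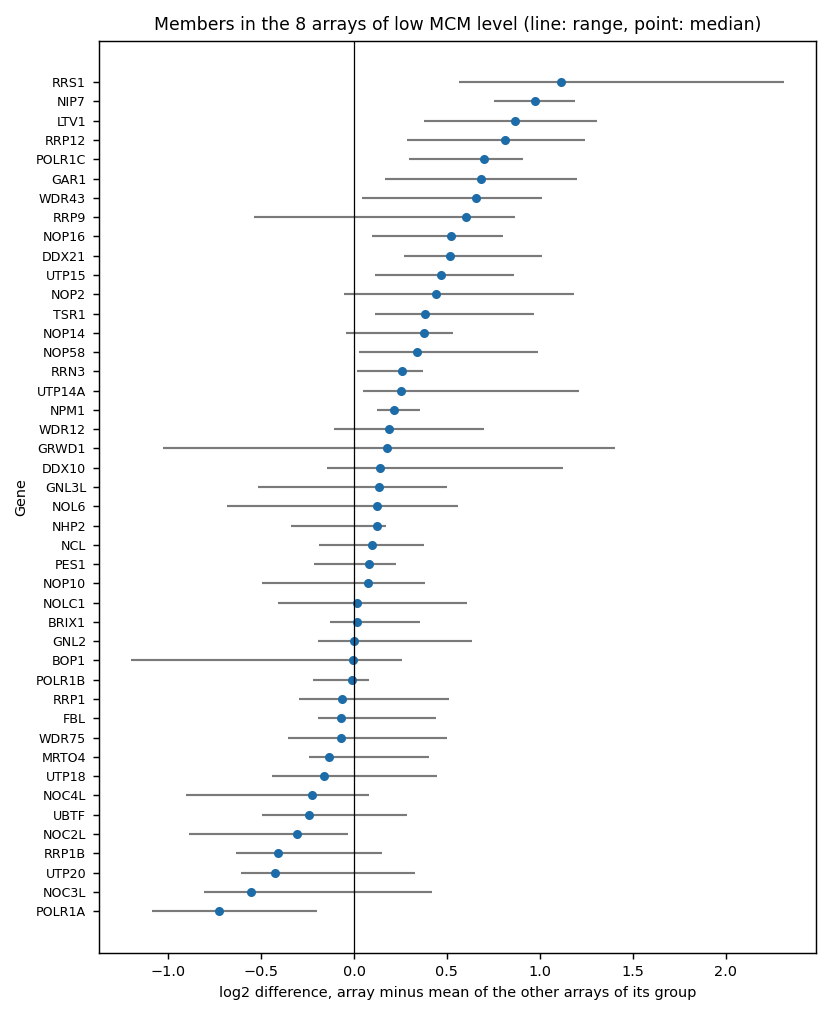
For each of the 44 factors (down the page), the log2 difference between an array of low MCM level and the mean of the other arrays of its group (horizontal axis), with the median over 8 arrays as a point and the range as a line. RRS1 and NIP7 stand highest with medians of 1.12 and 0.98, and POLR1A lowest at −0.73.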

How the data were processed

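Levels of 44 ribosome biogenesis factors were taken from the table the authors deposited, whose values are on a log2 scale. That scale was inferred from the values (1.85 to 19.9, array medians 4.2 to 4.84), and no source used here gives the background correction or normalization. The growth and extraction protocols in the labels describe mouse forelimbs and do not match this line, so they were set aside. Symbols came from the platform's annotation table: of 65029 probe sets, 23077 carried 1 symbol, 1357 several and 40595 none. One probe set was kept for each of 22384 genes, that of highest mean over the 35 arrays. BOP1 was the only factor with more than 1 probe set of its own, and no 2 arrays were identical. No build is named for the array.

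All arrays entered 1 limma fit (limma 3.58.1, R 4.3.3) of 12 group means, with 23 residual and 2.69 prior degrees of freedom, which gives all comparisons a common spread. P-values were adjusted over all genes (Benjamini-Hochberg) and called under 0.05, and the fit was tested on simulated data. Precision is limited by the number of arrays. The gene lists and roles, the 49 members and the 8 arrays of low MCM level were chosen with earlier results of these data known, and the genes at or above the level of the lowest factor were added after seeing the data. Factors named are those called, at most 12 by largest change, or the 3 of lowest p where none was called; arrays are given for those called against DMSO and for the leaders of each role. BRIX1 and FBL among the RAD001 polysome calls were named, and GRWD1, NOC4L, BOP1, NOP10, RRP1, RRS1 and NIP7 given array by array, after their values were seen. Polysome and total RNA of one replicate number deviated together over all genes in every pair of PP242, RAD001 and RAD001 + IR. Correlations of these deviations from the group means were 0.309 to 0.697, 0.32 to 0.742 and 0.411 to 0.79 in that order. In these treatments replicate 3 of both fractions was an array of low MCM level. Such an array shifts the other replicates of its group the same way against the mean. The check therefore cannot show which of those other arrays belong together, and pairing by number was not established. The replicate block was an offset for each number shared by all 12 groups. Values with this block are given where they change a call. Promoter windows come from a RefSeq table (GRCh38.p14), and their motifs were searched there only. Alternatives were quantile normalization, a level filter, array weights, the mean of probe sets, only the groups compared, a replicate block, leaving out single arrays or sets of arrays, and the threshold of the design text.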

Additional observations from a re-analysis of the deposited data

How the results depend on the processing

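Each comparison was repeated under the alternatives. The level filter and the mean of probe sets kept every count of factors called within 1.5 times its first value. For PP242 against DMSO in total RNA, 2 factors were called, and 1 after quantile normalization, 1 without the 3 arrays of high median (a choice made after seeing the data), 4 with array weights, and 0 without the 8 arrays of low MCM level, in a fit of only the groups compared, or at the threshold of the design text; leaving out single arrays gave 0 to 4. For RAD001 in total RNA, with none called, the counts were 1 after quantile normalization, 2 with array weights, 2 without the 3 arrays and 0 to 3 without single arrays. Array weights gave 6 for PP242 polysome RNA, 5 for RAD001 + IR total RNA and 3 for PP242 + IR against IR in polysome RNA, where none was called without weights. For polysome against total RNA, array weights gave 11 with IR and 12 with DMSO. Without the 8 arrays 0 were called with PP242 + IR and 3 with RAD001 + IR, and without the 3 arrays 7 with PP242 + IR and 1 with DMSO. In a fit of only the groups compared, which has few degrees of freedom, there were 0 with PP242, 0 with PP242 + IR, 6 with RAD001 and 3 with DMSO. The threshold of the design text gave 1 with PP242, 1 with PP242 + IR, 3 with RAD001, 3 with RAD001 + IR, 1 with IR and 0 with DMSO. Leaving out single arrays gave 5 to 15 with PP242, 0 to 5 with PP242 + IR, 9 to 15 with RAD001, 5 to 8 with RAD001 + IR, 2 to 5 with IR and 1 to 6 with DMSO, where a group left with 1 array was assumed to vary like the others. Their medians ranged from −0.11 to 0.37 for PP242 efficiency against DMSO and from 0.0802 to 0.37 for polysome against total RNA with RAD001 + IR. The cause of these moves was not tested.

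Replicate numbers were shared by the groups. Outside PP242, RAD001 and RAD001 + IR, polysome and total RNA of one number did not always deviate together (0.56 and −0.47 with PP242 + IR, 0.03, 0.03 and 0.13 with IR, 0.17, 0.00 and 0.49 with DMSO). Replicate 2 of PP242 + IR total RNA, of the pair at −0.47, is the array of low MCM level of its group, as replicate 3 is in the other inhibitor groups, and whether its number is right was not tested. With a replicate block, polysome against total RNA had 15 factors called with PP242, 6 with PP242 + IR, 17 with RAD001, 10 with RAD001 + IR, 10 with IR and 8 with DMSO, in place of 12, 4, 14, 8, 6 and 5, and no call was lost. No other count moved by more than 1.5 times under the block.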
